A study of Homo sapiens with 4 samples.

Results

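The genes described here encode the antioxidant, glutathione and selenoprotein machinery, 42 genes taken by symbol from a fixed list out of the 60617 gene entries of the deposited table. They were measured by RNA-seq in SKNMC, an established human Ewing sarcoma cell line. Cells were kept for 24 h in 1 µM CBL0137 (n = 2 libraries) or in DMSO, the solvent vehicle (n = 2). CBL0137, of the curaxin class, intercalates into DNA and inhibits FACT, a complex that handles histones during transcription. All libraries came from this one line, grown in medium with serum, and no label says that the replicates of a group were separate cultures, so p-values measure only the spread between these libraries, which may be technical. The question posed by the design is which of these transcripts differ between CBL0137 and vehicle.

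Cells remove peroxides through linked systems. Glutathione, made from cysteine, glutamate and glycine, donates electrons to glutathione peroxidases. Thioredoxin and its reductase do the same for peroxiredoxins. Several of these enzymes are selenoproteins, which carry selenocysteine in the active site, an amino acid read from a TGA codon that would otherwise end translation. The transcription factor NRF2, held down by KEAP1, turns on many of the genes through antioxidant response elements in their control regions. Many cultured tumour cells depend on cystine import and on GPX4 to limit the lipid peroxidation that leads to ferroptosis.

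Of the 42 genes, 15 encode selenoproteins. The codons below, from GENCODE 44 transcripts on GRCh37, are shown because they separate the glutathione peroxidases GPX1, GPX3 and GPX4 from GPX7 and GPX8, whose transcripts fell furthest in that family. The selenocysteine codons of SELENOM and MSRB1, which were called, and of SELENOP and TXNRD1, which are described below, are also shown. Capitals mark the active-site codon, TGA for selenocysteine and TGC for cysteine, and each run gives the spliced coding sequence 5′ to 3′.
GPX1: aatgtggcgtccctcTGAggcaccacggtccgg
GPX3: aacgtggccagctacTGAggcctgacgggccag
GPX4: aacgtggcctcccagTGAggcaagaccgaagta
GPX7: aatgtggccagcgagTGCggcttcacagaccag
GPX8: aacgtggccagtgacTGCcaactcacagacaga
SELENOM: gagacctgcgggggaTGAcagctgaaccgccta
MSRB1: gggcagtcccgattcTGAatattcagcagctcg
SELENOP: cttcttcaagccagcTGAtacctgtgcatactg
TXNRD1: ctccaggctggctgcTGAggt

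These codons lie at chr3:49395565-49395567 for GPX1 (minus strand), chr5:150405030-150405032 for GPX3 (plus), chr19:1105402-1105404 for GPX4 (plus), chr1:53072386-53072388 for GPX7 (plus) and chr5:54456852-54456854 for GPX8 (plus). For the others they lie at chr22:31501937-31501939 for SELENOM (minus), chr16:1990813-1990815 for MSRB1 (minus), chr5:42808279-42808281 for SELENOP (minus) and chr12:104742191-104742193 for TXNRD1 (plus). The TGA of the selenium enzymes stands where GPX7 and GPX8 have TGC. SELENOP, the plasma selenium carrier, has 10 TGA codons in its coding sequence, of which the first is shown. In TXNRD1 the TGA is codon 648 of 649, next to the end of the protein.

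The libraries held 19625517 to 21061892 reads assigned to genes. Reads in no annotated gene were 8.52% and 8.82% of counted reads with DMSO and 10.3% and 10.2% with CBL0137. The Ewing sarcoma markers CD99, FLI1, EWSR1, NKX2-2, NR0B1, STEAP1, CCND1 and PAX7 were all detected, with a summed level of 2432 and 2431 CPM with DMSO and of 1454 and 1547 CPM with CBL0137, and 4 of the 8 were called lower. CPM is a gene's count scaled to the TMM-adjusted size of its library, and it is a share of the sequenced RNA. In bulk RNA, fewer cells of a kind and less RNA per cell cannot be told apart. Of 4 epithelial markers 3 were tested and called higher, with a sum of 51.2 and 52.0 CPM against 113 and 114 CPM. KRT18 made up most of that sum, CDH1 was at 0 with DMSO, and the part of these markers in the results below was not tested. PTPRC, the leukocyte gene, stood at 162 CPM in both DMSO libraries and at 107 and 124 CPM with CBL0137, while the other 5 blood cell markers stayed at or below 0.645 CPM. Endothelial markers summed to 1.85 and 1.83 CPM against 2.91 and 3.57 CPM, with CDH5 called higher. Hepatocyte markers summed to at most 0.723 CPM, with TTR at 0 throughout.

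The genes did not move as a block. Of the 42 members 41 passed the low-count filter. A gene was called when the edgeR adjusted p was under 0.05 and the fold above 1.5, and by this rule 7 members (17.1%) were higher and 4 (9.76%) lower with CBL0137. Over all 17374 genes tested 18.2% were called higher and 15.1% lower, so the share of higher calls was near that background. GPX3, called higher, and HMOX1, called lower, passed the low-count filter through 1 group only. The median log2 fold change was -0.03 for the members and 0.01 for all genes tested. With library size alone in place of TMM factors, which shifts all genes by 0.16, 10 members were called higher and 3 lower, against 4138 and 1877 of all genes (3166 and 2632 with TMM). An adjusted p under 0.05 at any fold was reached by 18 members (43.9%) in the higher and 15 (36.6%) in the lower direction, against 30.8% and 30.9% of all genes. Most members thus differed by small amounts. Some of these, as for GSTP1 and GPX4, were no larger than the shift of 0.16 between the normalizations.

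**Figure D1:**
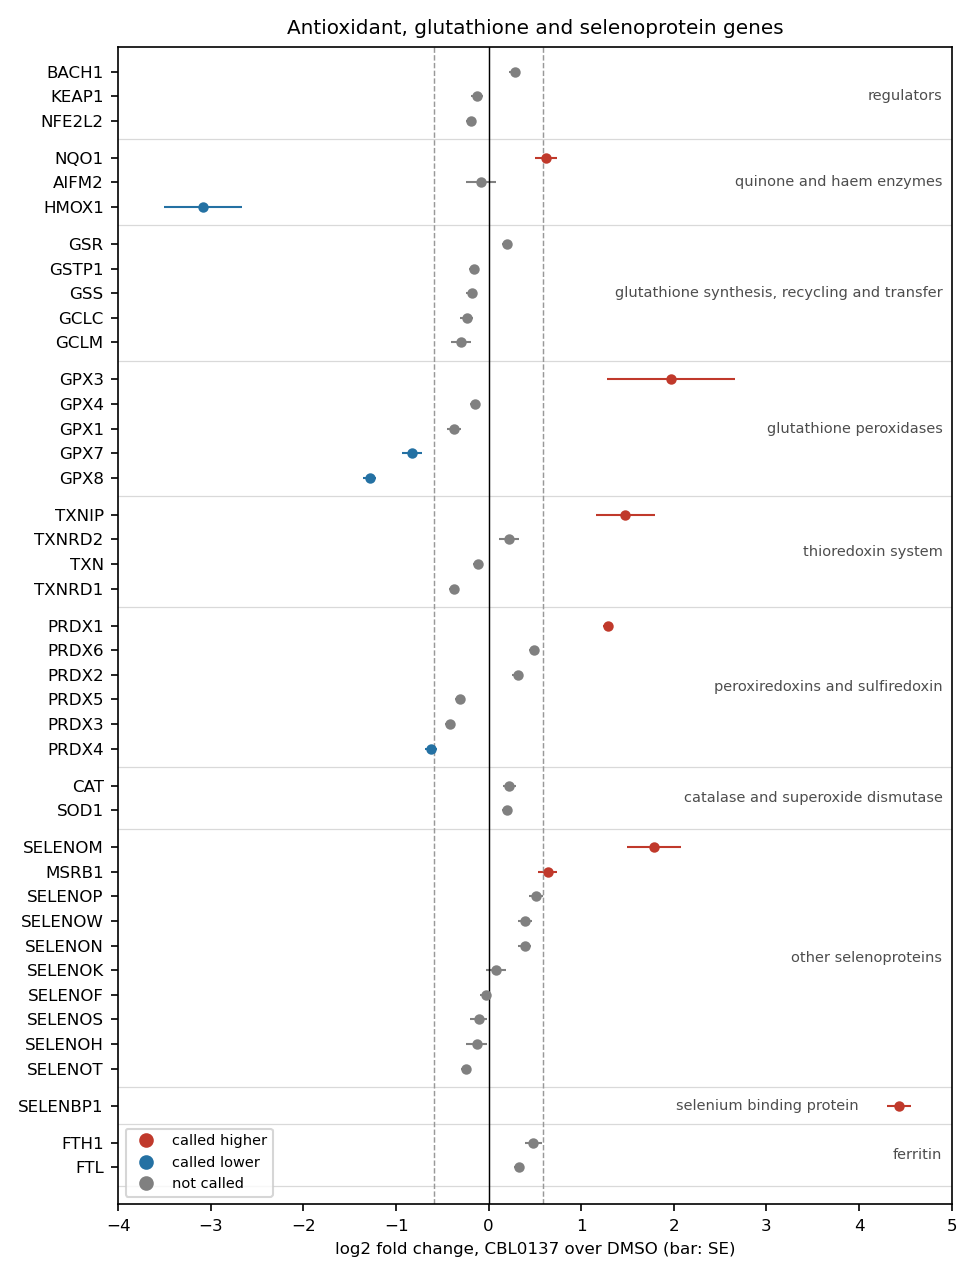
Log2 fold change of the 41 tested members (x axis; bars are the SE), grouped by role, with dashed lines at the fold limit of 1.5. The 7 genes called higher run from NQO1 at 0.62 to SELENBP1 at 4.43 and the 4 called lower from PRDX4 at -0.62 to HMOX1 at -3.09, while most members lie between the dashed lines.

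The regulators of the antioxidant response changed little. NFE2L2, the gene of NRF2, stood at 131 and 126 CPM with DMSO and 109 and 116 CPM with CBL0137, a log2 fold change of -0.19 (adjusted p = 0.0029, SE 0.06) under the fold limit. KEAP1, the adaptor that sends NRF2 for degradation, was at 74.5 and 67.6 against 65.2 and 65.2 CPM, with a log2 fold change of -0.13 (adjusted p = 0.092) that turned to 0.03 with library size alone. BACH1, the repressor that competes with NRF2 at its binding sites, was at 103 and 105 against 130.2 and 123 CPM (log2 fold change 0.28, SE 0.06), and at 0.60, past the fold limit, after correction for GC content and span. Both CBL0137 libraries of BACH1 lay above both DMSO libraries, and those of NFE2L2 below. Of these 3 genes 0 were called by edgeR, DESeq2 or limma on FPKM, and an unadjusted edgeR p under 0.05 was reached by 1 in each direction. Over all genes edgeR called 18.2% higher and 15.1% lower.

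HMOX1 and NQO1, both classic NRF2 targets, moved in opposite directions. HMOX1, the haem oxygenase that BACH1 represses (ENSG00000100292, GRCh37 chromosome 22, 35776354 to 35790207, plus strand), had 50 and 60 reads with DMSO and 10 and 5 with CBL0137, or 2.64, 3.22, 0.455 and 0.226 CPM. The groups were far apart although the level was low in all libraries. The log2 fold change was -3.09 (adjusted p = 3e-08, SE 0.42), an 8.49-fold lower level, and -2.68 to -3.67 when a library was left out. HMOX1 passed the low-count filter through the DMSO libraries alone. NQO1, a quinone reductase (ENSG00000181019, chromosome 16, 69740899 to 69760571, minus strand), rose from 12.3 and 10.5 to 17.2 and 18.0 CPM, with a log2 fold change of 0.62 (adjusted p = 1.5e-05, SE 0.12). That call sits at the fold limit and was lost without DMSO replicate 2 (0.50) and without CBL0137 replicate 2 (0.58). AIFM2, which reduces coenzyme Q at membranes and so limits lipid peroxidation, was at 7.40 and 7.31 against 6.65 and 7.27 CPM (log2 fold change -0.08, adjusted p = 0.69, SE 0.16).

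**Figure D2:**
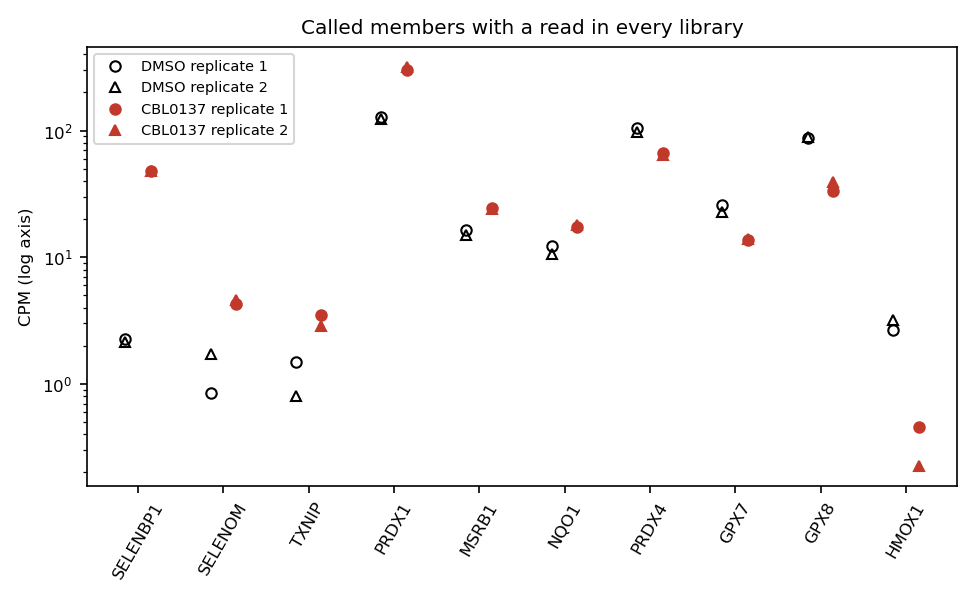
CPM of 10 called members in each of the 4 libraries (log axis; circles are replicate 1, triangles replicate 2, open symbols DMSO, filled symbols CBL0137). The open and filled symbols do not overlap for any of these genes, which were chosen for being called. GPX3, with 0 reads in DMSO replicate 2, is left out.

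The enzymes that make and recycle glutathione stayed within the fold limit. GCLC and GCLM, the catalytic and modifier subunits of the rate-limiting ligase, had log2 fold changes of -0.24 (SE 0.07) and -0.30 (SE 0.11). GSS, the second enzyme of synthesis, was at 96.9 and 97.3 against 86.8 and 84.1 CPM (-0.18, SE 0.06). GSR, which returns oxidised glutathione to its reduced form, was at 182 and 184 against 207 and 214 CPM (0.20, SE 0.05). GSTP1, a glutathione transferase and the most abundant of these 5 genes per length (210.0 FPKM with DMSO), had a log2 fold change of -0.16 (SE 0.05) that turned to 0.0034 with library size alone. Over the alternatives GSTP1 ran from -0.52 to 0.0034. All 5 had an adjusted p under 0.05, as did 30.8% of all genes in the higher and 30.9% in the lower direction. By edgeR, DESeq2 or limma on FPKM 0 were called, where edgeR called 18.2% of all genes higher and 15.1% lower. In each gene both CBL0137 libraries lay on one side of both DMSO libraries, and the share of all genes that did so is not given here.

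Among the glutathione peroxidases the cysteine enzymes GPX7 and GPX8 fell and the selenium enzymes GPX1 and GPX4 stayed under the fold limit. GPX8, an enzyme of the endoplasmic reticulum (ENSG00000164294, chromosome 5, 54455995 to 54463125, plus strand), went from 87.5 and 89.7 to 33.2 and 39.6 CPM, with a log2 fold change of -1.28 (adjusted p = 3.7e-19, SE 0.07). GPX7, also of the endoplasmic reticulum (ENSG00000116157, chromosome 1, 53068043 to 53074723, plus strand), went from 26.0 and 22.6 to 13.6 and 13.8 CPM, with a log2 fold change of -0.83 (adjusted p = 7.8e-09, SE 0.11). Neither gene had overlapping groups, and both calls stood with each library left out. GPX1, the cytosolic enzyme, was at 46.8 and 42.4 against 32.7 and 36.1 CPM (-0.37, SE 0.08), and was called lower (-0.80) after correction for GC content and span. GPX4, which reduces peroxidised phospholipids, was at 215 and 194 against 184 and 184 CPM (-0.15, SE 0.05, and 0.01 with library size alone). Over the alternatives GPX4 ran from -0.52 to 0.01.

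GPX3, the secreted enzyme (ENSG00000211445, chromosome 5, 150400152 to 150408549, plus strand), was near the limit of detection. It had 7 and 0 reads with DMSO and 18 and 15 with CBL0137, and passed the low-count filter through the CBL0137 libraries alone. Its log2 fold change of 1.97 (adjusted p = 0.013, SE 0.69) ran from 0.99 without DMSO replicate 2 to 6.97 without DMSO replicate 1. The adjusted p was 0.29 without DMSO replicate 2, 0.10 without CBL0137 replicate 1, 0.30 with DESeq2 and 0.23 with no filter on low counts. The call of GPX3 thus rests on few reads and on single libraries.

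In the thioredoxin system the inhibitor rose and the reductase of the cytosol was slightly lower. TXNIP, which binds thioredoxin and also restrains glucose uptake (ENSG00000265972, chromosome 1, 145438490 to 145442635, plus strand), had 28 and 15 reads with DMSO and 77 and 64 with CBL0137, or 1.48, 0.806, 3.50 and 2.89 CPM. Its log2 fold change was 1.48 (adjusted p = 0.00012, SE 0.32) and 1.09 to 1.96 when a library was left out. TXNRD1, the selenoprotein reductase of the cytosol, was at 426 and 410.2 against 316 and 329 CPM (-0.37, adjusted p = 4.5e-08, SE 0.05). TXNRD2, its mitochondrial counterpart, was at 19.6 and 16.1 against 19.9 and 21.6 CPM (0.22, adjusted p = 0.068), and -0.06 after correction for GC content and span. TXN, thioredoxin itself, was at 207 and 196 against 175 and 198 CPM, where the groups overlapped (-0.11, adjusted p = 0.081). Its sign turned with library size alone, with FPKM and with that correction.

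The 6 peroxiredoxins split evenly. PRDX1, the main cytosolic peroxiredoxin (ENSG00000117450, chromosome 1, 45976586 to 46008404, minus strand), rose from 128 and 124 to 299.8 and 318 CPM, with a log2 fold change of 1.29 (adjusted p = 2.9e-23, SE 0.05). This 2.45-fold rise had the smallest p of the family and stood in every alternative tried. PRDX6 (106 and 102 against 146 and 146 CPM, log2 fold change 0.49) and PRDX2 (105 and 91.4 against 124 and 120.2 CPM, 0.31), also cytosolic, were higher under the fold limit. PRDX6 was called with library size alone (0.65), and PRDX2 ran from 0.10 to 0.47 over the alternatives.

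PRDX4, the peroxiredoxin of the endoplasmic reticulum (ENSG00000123131, chromosome X, 23682379 to 23704514, plus strand), fell from 104 and 96.8 to 66.5 and 63.9 CPM, with a log2 fold change of -0.62 (adjusted p = 1.1e-11, SE 0.06). Its groups were well apart, but the size sits at the fold limit, and the call was lost with library size alone (-0.47), upper-quartile factors (-0.56) and FPKM (-0.53). The mitochondrial PRDX3 was at 112 and 112 against 82.0 and 86.1 CPM (-0.42, SE 0.06). PRDX5, found in mitochondria and peroxisomes, was at 147 and 133 against 114 and 113 CPM (-0.31, SE 0.06), and at -0.63, past the fold limit, after correction for GC content and span. The summed level of the 6 genes was 703 and 661 CPM with DMSO and 832 and 847 CPM with CBL0137. Per length, on the deposited FPKM scale, PRDX2 led with DMSO (153 and 139 FPKM, against 122 and 95.7 for PRDX1). With CBL0137 PRDX1 led (256 and 264 FPKM, against 187 and 179 for PRDX2).

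SRXN1, the sulfiredoxin that repairs overoxidised peroxiredoxins, could not be tested from counts. It had 0 and 1 reads with DMSO and 3 and 4 with CBL0137, yet 3.65 and 3.37 FPKM against 5.39 and 5.81 FPKM in the same libraries. The gene overlaps ENSG00000270299 on the same strand (chromosome 20, 627270 to 656444), which had 3, 0, 1 and 12 reads and a near-equal FPKM of 3.59, 3.29, 5.11 and 5.58 in the same order. The difference of SRXN1 in log2(FPKM + 1) was 0.55 (limma adjusted p = 0.0094), under the fold limit.

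CAT, the peroxisomal catalase, was at 40.4 and 39.8 against 45.4 and 48.2 CPM (log2 fold change 0.22, SE 0.07). SOD1, the cytosolic superoxide dismutase, was at 169.6 and 161 against 184.5 and 193 CPM (0.19, SE 0.05, and 0.07 to 0.35 over the alternatives). Both lay under the fold limit with groups that did not overlap.

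SELENBP1 showed the steepest rise of the members. It encodes a methanethiol oxidase that binds selenium without carrying selenocysteine (ENSG00000143416, chromosome 1, 151336780 to 151345183, minus strand). The gene had 43 and 40 reads with DMSO and 1054 and 1061 with CBL0137, or 2.27, 2.15, 47.97 and 47.92 CPM. The replicates of each group lay close together. The log2 fold change of 4.43 (adjusted p = 7.6e-29, SE 0.13) is a 21.6-fold rise, and SELENBP1 overlaps no other annotated gene. The deposited FPKM values differed more between the DMSO libraries than the counts did, at 0.801 and 0.247, against 19.1 and 19.6 with CBL0137.

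Of the 15 selenoproteins edgeR called 3 higher (20.0%, against 18.2% of all genes) and 0 lower (against 15.1%), with 12 not called and a median log2 fold change of 0.08. The share called higher was near the background, and 1 of the 3, GPX3, passed the low-count filter through the CBL0137 libraries alone. For the lower direction the unadjusted p was under 0.05 for 4 genes, DESeq2 called 0 and limma on FPKM called 1, SELENOH. Without DMSO replicate 2, 1 was called higher. The summed level was 1232 and 1177 CPM with DMSO and 1084 and 1113 CPM with CBL0137, a sum that TXNRD1, GPX4, SELENOT and SELENOF dominate. At any fold, 6 (40.0%) had an adjusted p under 0.05 in the higher and 4 (26.7%) in the lower direction, against 30.8% and 30.9% of all genes.

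**Figure D3:**
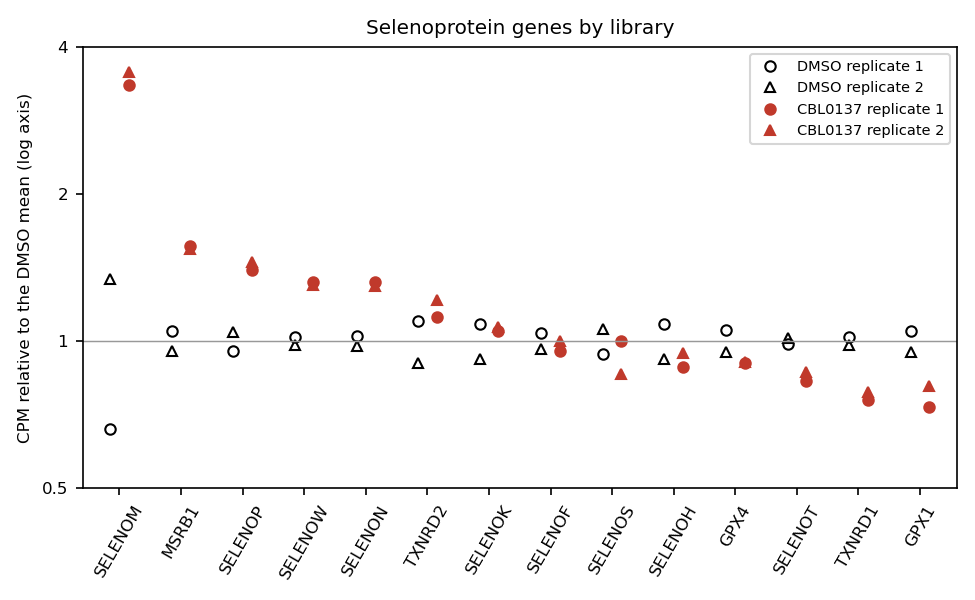
CPM of 14 selenoprotein genes in each library divided by the DMSO mean of that gene (log axis; circles are replicate 1, triangles replicate 2, open symbols DMSO, filled symbols CBL0137). SELENOM is highest and GPX1 and TXNRD1 lowest with CBL0137, and most genes lie near 1; GPX3 is left out for its 0 reads in DMSO replicate 2.

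SELENOM, a thioredoxin-like protein of the endoplasmic reticulum (ENSG00000198832, chromosome 22, 31500758 to 31516055, minus strand), had 16 and 32 reads with DMSO and 94 and 101 with CBL0137, or 0.846, 1.72, 4.28 and 4.56 CPM. The DMSO libraries differed widely from each other, and both stayed below the CBL0137 libraries. The log2 fold change was 1.78 (adjusted p = 1e-06, SE 0.29), 1.34 without DMSO replicate 1 and 2.36 without DMSO replicate 2. MSRB1, which reduces oxidised methionine (ENSG00000198736, chromosome 16, 1988230 to 1993200, minus strand), rose from 16.5 and 14.99 to 24.7 and 24.3 CPM, with a log2 fold change of 0.64 (adjusted p = 8e-07, SE 0.10). The call was lost without DMSO replicate 2 (0.55) and after correction for GC content and span (0.40).

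SELENOP was at 30.6 and 33.5 against 44.8 and 46.6 CPM, a log2 fold change of 0.51 (adjusted p = 3.2e-07, SE 0.08) under the fold limit. On the FPKM scale it was at 30.0 and 32.7 against 72.9 and 77.7, and it was called there (1.24 in log2(FPKM + 1)), with library size alone (0.67) and after correction for GC content and span (0.73). SELENOP overlaps CCDC152 on the opposite strand, and reads in more than 1 gene stand apart in the table as ambiguous. SELENON, an endoplasmic reticulum protein known from congenital muscle disease (48.8 and 46.4 against 62.9 and 61.8 CPM, 0.39), and SELENOW, a small thioredoxin-fold protein (35.6 and 34.4 against 46.3 and 45.6 CPM, 0.39), were higher under the fold limit.

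SELENOT, an endoplasmic reticulum protein, was lower under the limit (191 and 196 against 161 and 167 CPM, log2 fold change -0.24). SELENOF, SELENOK and SELENOS, all linked to folding or disposal of proteins in the endoplasmic reticulum, had log2 fold changes of -0.03, 0.08 and -0.11 with adjusted p values of 0.62, 0.54 and 0.33, and their groups overlapped. Their signs turned under some alternatives. SELENOH, a nucleolar selenoprotein, was at 18.4 and 15.6 against 15.1 and 16.1 CPM (-0.13, adjusted p = 0.33). Its FPKM went from 26.3 and 25.7 to 15.05 and 18.2, where it was called lower (-0.62 in log2(FPKM + 1), limma adjusted p = 0.0073), and it overlaps the gene ENSG00000254732 on the same strand.

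**Figure D4:**
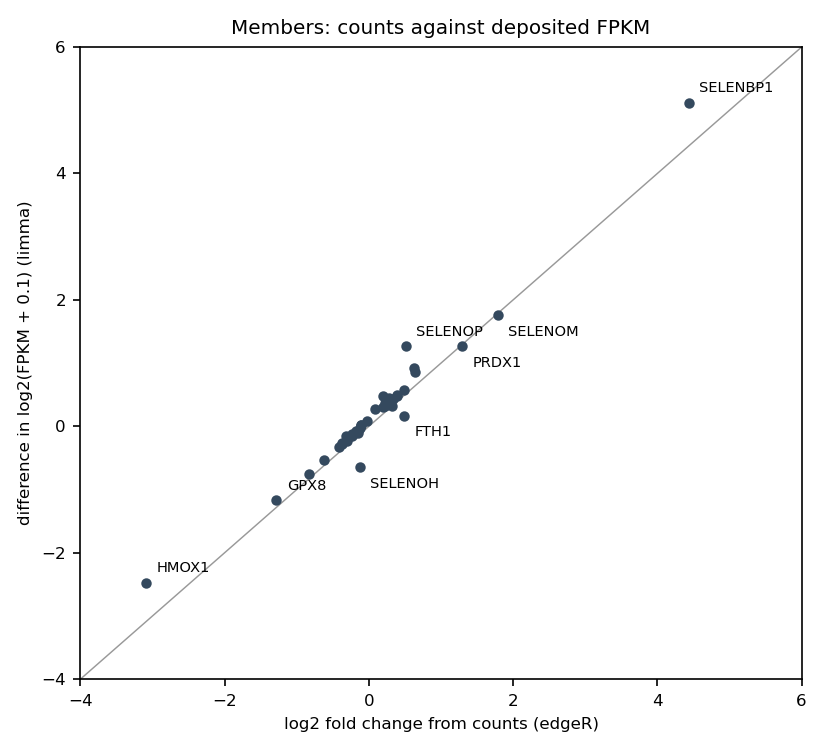
Difference in log2(FPKM + 0.1) between groups (y axis) against the log2 fold change from counts (x axis) for the 38 members tested both ways; the line marks equal values. FPKM differences lay a median of 0.10 above those from counts, and HMOX1, SELENOH, SELENOP and SELENBP1 departed by more than 0.4.

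Ferritin stores iron and keeps it from fuelling radical chemistry. FTL, the light chain and by FPKM the most abundant member, was at 1363 and 1270 against 1647 and 1661 CPM (log2 fold change 0.33, adjusted p = 1.2e-06, SE 0.05). Over the alternatives FTL ran from 0.07 to 0.49. FTH1, the heavy chain, was at 174 and 279.5 against 335 and 299.3 CPM (0.48, adjusted p = 1.6e-05, SE 0.09). DMSO replicate 1 of FTH1 lay far below the other 3 libraries. Its log2 fold change was 0.16 without DMSO replicate 1 and 0.85, past the fold limit, without DMSO replicate 2. Its DESeq2 adjusted p was 0.48. On the FPKM scale FTH1 stood at 741 and 879 with DMSO against 904 and 910 with CBL0137. The difference in log2(FPKM + 1) was 0.17 (limma adjusted p = 0.2). FTH1 has many processed copies in the genome, and reads aligned to several places were left out of the counts.

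The core of the antioxidant response element, searched as TGACNNNGC on both strands in RefSeq promoter windows (GRCh38.p14, 250 bases before to 50 after the gene start), was present for 8 of the 33 members searched (24.2%) and for 16.1% of 27305 genes. FTH1, GSR, GSS, HMOX1, PRDX1, PRDX6, SELENBP1, SELENOM and SOD1 were not searched. Of those not searched, HMOX1, PRDX1, SELENBP1 and SELENOM were called members. The 8 were AIFM2, GCLM, GSTP1, KEAP1, SELENOK, SELENON, SELENOP and TXNRD1. The windows of 4 genes are shown because they hold the same element in genes of glutathione, thioredoxin and lipid peroxide defence that stayed within the fold limit. Capitals mark the match.
AIFM2: cagcacgagtGCTGAGTCAcgccccgccc
GCLM: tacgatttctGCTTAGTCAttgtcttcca
GSTP1: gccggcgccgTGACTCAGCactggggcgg
TXNRD1: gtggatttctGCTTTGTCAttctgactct

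The runs lie at chr10:70132829-70132857 (AIFM2, minus strand), chr1:93909446-93909474 (GCLM, minus), chr11:67583736-67583764 (GSTP1, plus) and chr12:104286920-104286948 (TXNRD1, plus). The matches start 22, 34, 66 and 102 bases before the gene start in this order. Log2 fold changes of the 8 genes ran from -0.37 to 0.51, and 0 were called by edgeR or DESeq2 in either direction. Over all genes edgeR called 18.2% higher and 15.1% lower, so 0 of 8 is a weak result. The unadjusted edgeR p was under 0.05 for 2 higher and 3 lower genes, and limma on FPKM called SELENOP higher. A match is a description of letters and does not show binding.

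Outside the 42 genes, transcripts of the cystine importer and of 3 genes on a selenocysteine incorporation list fell. These lists were chosen with earlier results of these data known. Of 26 tested other glutathione enzymes and transporters 9 were lower and 4 higher, with 13 not called (34.6% lower against 15.1% of all genes, 15.4% higher against 18.2%; median log2 fold change -0.32 against 0.01). GSTM5, not called, passed the low-count filter through the CBL0137 libraries alone. SLC3A2, the heavy chain of the cystine importer, fell from 597 and 541 to 219.8 and 225 CPM, with a log2 fold change of -1.35 (SE 0.05). CHAC1, which degrades glutathione, had a log2 fold change of -2.71 (SE 0.07), and both were lower in both CBL0137 libraries than in both DMSO libraries.

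Of 26 tested other NRF2 targets 5 were higher, 5 lower and 16 not called (3 higher and 5 lower with DESeq2, 5 and 2 with limma on FPKM). The share was 19.2% in each direction, near the 18.2% and 15.1% of all genes. ABCC2, called higher, and AKR1B1, called lower, passed the low-count filter through 1 group only. These genes and AKR1C3, also called lower, did not reach 1 FPKM in 2 libraries and so were not tested with limma. SLC7A11, the transport subunit of the cystine importer, fell from 561 and 607 to 119 and 145 CPM, a log2 fold change of -2.15 (adjusted p = 2.2e-28, SE 0.06). EPHX1, a microsomal epoxide hydrolase, rose from 22.1 and 20.9 to 67.5 and 61.0 CPM (1.58, SE 0.08).

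Of the 10 genes listed under selenocysteine incorporation 3 fell (30.0%, against 15.1% of all genes) and 0 rose (against 18.2%) by edgeR, with 7 not called. The list is broader than its name, as it also holds SCLY and LRP8, which were not called. In the higher direction 2 reached an unadjusted p under 0.05, DESeq2 and limma on FPKM called 0, and library size alone called 1. SEPHS1, a paralogue of the selenophosphate synthetase, fell from 79.7 and 77.3 to 28.2 and 29.7 CPM (log2 fold change -1.44, SE 0.07). SECISBP2, the protein that binds the selenocysteine insertion element, fell from 177 and 183 to 75.7 and 81.7 CPM (-1.20, SE 0.06). TRNAU1AP, which binds the selenocysteine tRNA, was the third to fall (-0.69). SEPHS2, the synthetase and itself a selenoprotein, was at 131 and 119 against 168 and 159.5 CPM (0.39, SE 0.06) under the fold limit.

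Of 5 tested selenoproteins outside the members 0 were called in either direction by edgeR (against 18.2% higher and 15.1% lower of all genes) or DESeq2. In each direction 2 had an unadjusted edgeR p under 0.05, and limma on FPKM called 1 higher. Without DMSO replicate 1, 1 was called higher, and without CBL0137 replicate 2, 1 was called lower. DIO1, tested but not called in the main fit, passed the low-count filter through the CBL0137 libraries alone. SELENOI, a phospholipid synthesis enzyme, was at -0.56 (SE 0.06). Of 17 other oxidant defence genes 2 were higher and 2 lower (11.8% each, against 18.2% and 15.1% of all genes), and 1 was higher without DMSO replicate 2. SESN3, called higher, passed the low-count filter through the CBL0137 libraries alone. SESN2, a sestrin, fell from 103 and 105 to 51.7 and 49.0 CPM (-1.05, SE 0.06), and TXNL1 was at -0.40 (SE 0.06).

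Of 6 tested oxidant producing oxidases 3 were higher and 1 lower (0 and 1 with limma on FPKM), or 50% and 16.7% against 18.2% and 15.1% of all genes. DUOX1 and DUOX2, both called higher, did not reach 1 FPKM in 2 libraries and so were not tested with limma. DUOX2, 1 of the 3, had 5 and 15 reads with DMSO and 43 and 33 with CBL0137 and passed the low-count filter through the CBL0137 libraries alone. NOX1, tested but not called, passed that filter in the same way. XDH, xanthine dehydrogenase, fell from 18.9 and 21.5 to 2.78 and 3.97 CPM (log2 fold change -2.58, SE 0.15), and DUOX1, a dual oxidase, rose from 1.53 and 1.40 to 6.14 and 5.10 CPM (1.94, SE 0.25). Of 12 iron handling and lipid peroxidation genes 1 was higher and 1 lower (8.33% each, against 18.2% and 15.1% of all genes; 4 higher with library size alone, 2 without DMSO replicate 2). SLC11A2, an iron transporter, rose from 53.0 and 55.3 to 91.6 and 91.0 CPM (0.75, SE 0.06). ACSL4, which supplies the polyunsaturated lipids that peroxidise in ferroptosis, fell from 47.4 and 47.4 to 18.7 and 19.4 CPM (-1.31, SE 0.08).

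**Figure D5:**
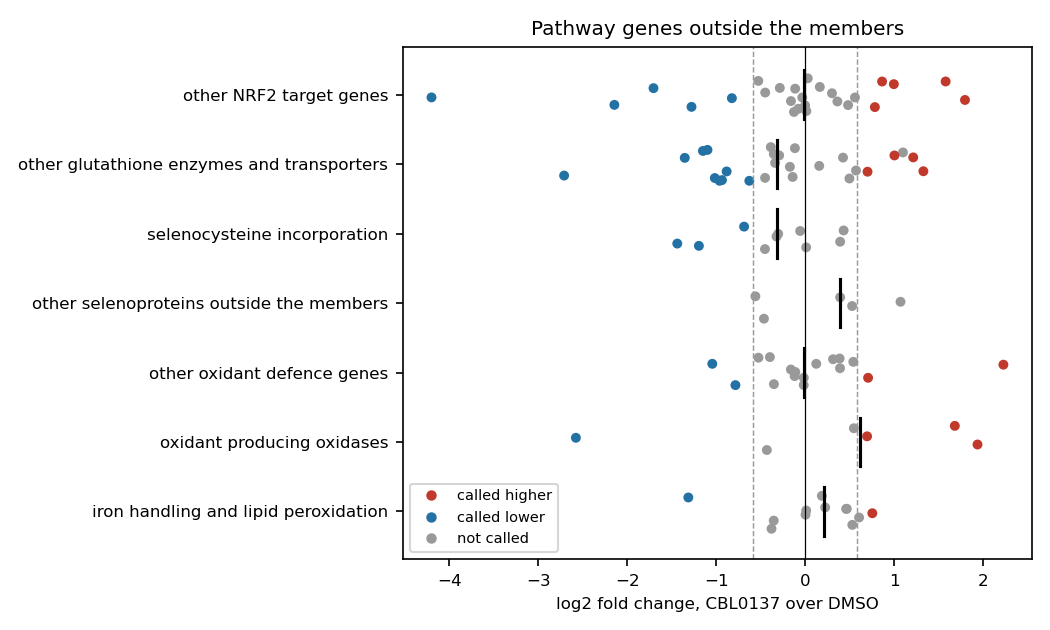
Log2 fold change of each tested gene (x axis; the vertical offset within a line is for legibility only) in 7 lists of pathway genes outside the members, with dashed lines at the fold limit of 1.5 and a black bar at each list's median. The glutathione and selenocysteine incorporation lists have medians of -0.32 and -0.31, and the other medians lie between -0.02 and 0.62.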

How the data were processed

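RNA-seq was done on total RNA of SKNMC cells, with 2 libraries per group. Adapter trimming (Trim Galore), alignment to hg19 (HISAT2) and counting (HTSeq 0.11.1) were done by the authors, per the series' design text. The deposited counts are raw and unnormalized. The deposited FPKM values were computed by the authors from reads, gene length and depth, with a tool not given in the sources used here. FPKM is no rescaling of the counts: 5103 genes with 0 counts throughout had FPKM above 0. The submitters' processing notes also name mm10, with no role. No strand setting or annotation release is given in the sources used here. Of the 42 members 20 overlap no other annotated gene, 12 overlap one on the same strand and 19 on the opposite strand, where reads may not be told apart. Among the 11 called, NQO1, GPX8, PRDX1 and SELENOM overlap another gene.

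The 6 entries naming no gene (HTSeq totals and a stray header) were left out. They held 6.91% to 7.13% of counted reads as multiply aligned and 8.75% to 9.34% as ambiguous, beside the share in no gene. Counts were tested with edgeR 4.0.16 in R 4.3.3 (quasi-likelihood F test, TMM factors 0.943 to 1.06, filterByExpr), and adjusted p is Benjamini-Hochberg over all 17374 genes tested. SE is the absolute log2 fold change over the square root of F. Alternatives used DESeq2 1.42.0 and limma 3.58.1, the latter on log2(FPKM + 1), where the added 1 understates the change of low genes. Unless stated, limma kept only genes with at least 1 FPKM in 2 libraries. An alternative labelled as corrected for GC content and span subtracted a loess trend over all genes from the log2 fold changes. It kept the adjusted p of the main fit, so calls were gained or lost there only through the fold limit. The edgeR step was also run on simulated counts with far fewer changed genes than here, and that run does not bear on these calls. With 2 libraries against 2, an exact permutation test cannot reach 0.05, so no value outside the fits has a p. Groups that did not overlap are described gene by gene, and the share of all genes with such groups is not given. Replicates differed by more than counting noise (chi-square per degree of freedom 3.06 and 2.81). Gene positions are from GENCODE 44 on GRCh37, the build called hg19 by the authors. All members matched a gene by symbol. SOD2, GSTT1 and PECAM1, in the accompanying lists, were not analysed here. Every member is accounted for, called ones with all library values. Of each pathway list the 2 genes with the smallest p are named. TRNAU1AP, SCLY, LRP8, ABCC2, AKR1B1, AKR1C3, GSTM5, DIO1, SESN3, NOX1 and DUOX2 were added after their values were seen. Members and lists were chosen with earlier results of these data known.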

Additional observations from a re-analysis of the deposited data

Results flagged for a closer look

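SRXN1 had a signal in the FPKM values that the counts did not carry: the mean was 5.60 FPKM with CBL0137 and 3.51 FPKM with DMSO, beside 0 to 4 reads per library in the counts.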

How the results depend on the processing

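No call of a member reversed. With no fold limit 18 members were higher and 15 lower (all genes 5347 and 5375; selenoproteins 6 and 4). With a fold above 2, 2 members were lower, and all genes gave 1988 and 1218. With limma on log2(FPKM + 1) all genes gave 1918 higher and 1518 lower, and without a filter 1215 and 1057, with 4 members and 1 selenoprotein higher. Selenoproteins called lower numbered 1 with FPKM at either pseudocount (SELENOH) and 1 after correction for GC content and span (GPX1). Leaving out a library gave 5 to 7 members higher and 4 lower, 1 to 3 selenoproteins higher and 0 lower, and over all genes 2699 to 2974 higher and 2418 to 2655 lower; a group left with 1 library is assumed to vary like the other. Signs reversed only for uncalled genes. With library size alone KEAP1 was at 0.0336, AIFM2 at 0.0791, GSTP1 at 0.0034, GPX4 at 0.0109, TXN at 0.0461, SELENOF at 0.125, SELENOH at 0.0308 and SELENOS at 0.0515. With log2(FPKM + 1), filtered or not, TXN was at 0.0159, SELENOF at 0.0833 and SELENOS at 0.0124, and unfiltered AIFM2 at 0.0559. With log2(FPKM + 0.1) the values were 0.0160 for TXN, 0.0846 for SELENOF and 0.0132 for SELENOS. With the GC and span correction TXN was at 0.0391, SELENOF at 0.172 and TXNRD2 at -0.0561. SELENOF was at 0.0343 with upper-quartile factors. With a library left out SELENOF ran from -0.104 to 0.0059 and SELENOK from -0.048 to 0.187. The cause was not tested. With the replicate number as a block 7 members were higher and 4 lower, and all genes gave 3129 and 2612. The numbers share no stated origin, and same-numbered libraries deviated together by a correlation of 0.0196. AIFM2, GPX3 and TXNIP were not tested with the FPKM filter and GPX3 not with the stricter count filter. Depth limits GPX3, HMOX1, TXNIP and SELENOM, which had under 100 reads in at least 1 library of each group. SRXN1 had 0 to 4 reads per library beside 3.37 to 5.81 FPKM, and the cause of its low counts was not tested.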

Other observations

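The 7 members called higher had a median transcript GC content of 55.6% and the 4 called lower of 50.4%, against 47.8% over all genes tested and 50.1% over the members. The former is the value of GPX3, whose call rests on few reads. The genes called higher ran from 43.7% (TXNIP) to 60.8% (SELENOM) and those called lower from 40.3% (GPX8) to 58.5% (HMOX1), so the ranges overlap.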
